A study of Mus musculus with 16 samples.

Results

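Hepatocyte identity is held by a small set of DNA-binding proteins, and 9 of their genes are described here: Foxa1, Foxa2, Foxa3, Cebpa, Cebpb, Cebpd, Onecut1, Onecut2 and Prox1. The members were taken by gene symbol from the array's platform annotation, and all 9 were found among the 19505 genes tested, each with a single probe set. Liver biopsies of C57BL/6 mice were compared, 8 from a nonalcoholic steatohepatitis (NASH) model and 8 from control mice, with biotin-labelled total RNA on 1-colour Affymetrix-type arrays. The labels do not say how the model was induced, and they give no age, sex, diet or time of collection for either group. The labels do not state that the samples are separate animals, and p-values then reflect only the sample-to-sample spread, which may be technical. Samples carry the numbers of their labels, and the NASH model group has a 1a and a 1b.

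FOXA proteins are forkhead factors that open closed chromatin and so let other factors reach liver enhancers. C/EBP proteins are basic leucine zipper factors that bind DNA as pairs: C/EBP-alpha holds hepatocytes in their quiescent metabolic state, while C/EBP-beta and C/EBP-delta carry the response to cytokines, among them the acute-phase proteins. ONECUT1 (also called HNF6) and ONECUT2 combine a cut domain with a homeodomain and act in hepatocytes and bile duct cells. PROX1 is a homeodomain protein of hepatocytes and of lymphatic endothelium that restrains bile acid and lipid genes in the liver.

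These factors are known to bind the promoters of each other's genes, so promoter stretches of 2 members whose genes fell are shown with the letters that such factors bind. The sequences are those of RefSeq on GRCm38.p6, which need not share a build with the array. Windows of 7 of the 9 members were used. Cebpd had no window, and Onecut2 was left out because of its chromosome. The forkhead words searched were TGTTTAC, the variant TGTTTAT, the variant TGTTTGC and the variant TGTTTGT. The ONECUT words were ATTGAT or else ATCGAT, and the C/EBP word was TTGCNNAA. Each was searched on both strands in the 250 bases before a start, and words of one factor did not overlap those of another in the stretches shown. Foxa2, chr2:148047096-148047219, minus strand, with an ONECUT word and then a forkhead word in capitals, and Foxa1, chr12:57546206-57546292, minus strand, with a forkhead word in capitals, read 5′ to 3′ as follows.
Foxa2: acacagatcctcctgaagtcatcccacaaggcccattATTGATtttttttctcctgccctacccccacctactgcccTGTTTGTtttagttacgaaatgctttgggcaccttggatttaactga
Foxa1: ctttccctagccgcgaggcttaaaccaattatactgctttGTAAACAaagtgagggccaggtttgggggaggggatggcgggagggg
A forkhead word stood in 3 of the 10 promoter windows of the 7 members, 1 each of Foxa1, Foxa2 and Prox1, and in 15.7% of all 32851 promoter windows. An ONECUT word stood in 1 of the 10, that of Foxa2, and in 7.4% of all windows. The C/EBP word was in none of the members' windows and in 9.56% of all windows. A match is a description of letters and not of binding.

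Values are log2 expression after quantile normalization, and a difference is the NASH model mean minus the control mean. A gene passed where limma's moderated test gave an adjusted p (Benjamini-Hochberg, 19505 genes) under 0.05. All 9 members lay above the background floor of 2.89 (the 95th percentile of olfactory and vomeronasal receptor genes) in all 16 samples. In the NASH model livers 7 of the 9 factors fell, 1 rose and 1 did not pass. Over all genes, 13.4% passed as lower and 13.2% as higher (26.6% in either direction), and among genes with a mean level above the floor 19.1% passed as lower and 18.5% as higher. For 4 members, Foxa2, Foxa3, Cebpa and Prox1, every NASH model sample lay below every control sample, a pattern found in 3.89% of all genes (5.65% in the other direction, 9.54% in either). The median difference over the 9 members was -0.53, beside -0.04 over all genes. In a bulk liver sample, fewer hepatocytes and less RNA per hepatocyte cannot be told apart. Which cells carried a rise, or a shift between genes of a family, was not tested.

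All 3 FOXA genes fell. Foxa2, known for its part in fat and bile acid metabolism, had a lowest, median and highest level of 5.36, 5.99 and 6.10 in NASH model livers, against 6.23, 6.53 and 7.04 in control livers. The groups did not overlap, and the lowest levels were those of NASH model 1b and 2. Foxa2 averaged 5.82 ± 0.31 in NASH model livers and 6.58 ± 0.25 in control livers (SD, n = 8 each), a difference of -0.76 ± 0.14 (SE), or 1.69-fold lower (adjusted p = 2.7e-04).

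Foxa3, which takes part in the control of glucose production, had a lowest, median and highest level of 6.20, 6.36 and 6.65 in NASH model livers, against 6.77, 7.04 and 7.43 in control livers. The groups did not overlap. The difference was -0.65 ± 0.10 (SE), or 1.57-fold lower (adjusted p = 8.7e-05). Foxa1, which shares many binding sites with Foxa2, ran at 5.03, 5.22 and 5.67 (lowest, median and highest) in NASH model livers, against 4.99, 5.92 and 6.14 in control livers. Control 4 was the lowest sample of both groups, so the groups overlapped, although 6 of the 8 controls lay above all NASH model samples. Foxa1 fell by 0.53 ± 0.14 (SE; adjusted p = 0.0087), or by 0.64 without control 4 (adjusted p = 2.1e-04).

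**Figure D1:**
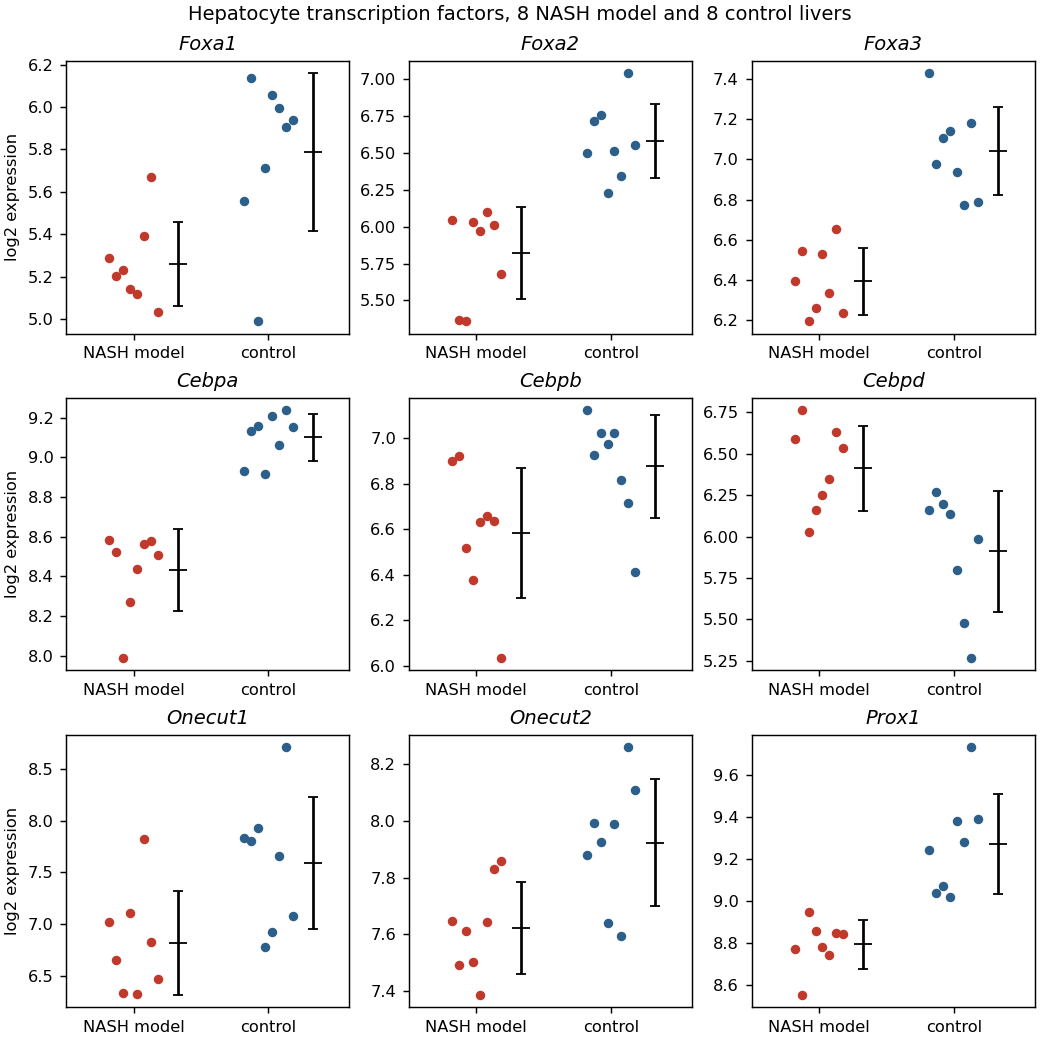
Log2 expression of the 9 transcription factor genes, each point a sample, with NASH model samples left (red) and controls right (blue), and the bar giving mean ± SD (n = 8 each). Axes do not start at 0 and differ between panels. Foxa2, Foxa3, Cebpa and Prox1 show no overlap between groups, and Cebpd is the panel in which the NASH model samples lie higher.

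The C/EBP genes did not move together. Cebpa had a lowest, median and highest level of 7.99, 8.51 and 8.58 in NASH model livers, against 8.92, 9.14 and 9.24 in control livers. The groups did not overlap, and NASH model 2 was lowest. Cebpa averaged 8.43 ± 0.21 in NASH model livers and 9.10 ± 0.12 in control livers (SD, n = 8 each), which is 1.59-fold lower (difference -0.67 ± 0.10 SE, adjusted p = 2.4e-05).

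Cebpb ran at 6.03, 6.64 and 6.92 (lowest, median and highest) in NASH model livers, against 6.41, 6.95 and 7.12 in control livers. The groups overlapped, and NASH model 7 was lowest. The difference of -0.29 ± 0.13 (SE; 95% interval -0.56 to -0.026) did not pass (adjusted p = 0.10). It passed with arrays centred on their medians (-0.35, adjusted p = 0.045), when NASH model 1a and 1b were left out (-0.40, adjusted p = 0.030) and when control 10 was left out (-0.36, adjusted p = 0.036), and over all alternatives its adjusted p ran between 0.017 and 0.40.

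Cebpd was the single member that rose. Its lowest, median and highest levels were 6.03, 6.44 and 6.76 in NASH model livers, against 5.27, 6.06 and 6.27 in control livers. Controls 9 and 7 were lowest, at 5.27 and 5.48, and the upper controls overlapped the lower NASH model samples. Cebpd averaged 6.41 ± 0.26 in NASH model livers and 5.91 ± 0.37 in control livers (SD, n = 8 each), or 1.42-fold higher (difference 0.50 ± 0.15 SE, adjusted p = 0.016). The rise missed the threshold (adjusted p = 0.072, difference 0.41) when samples 1a and 1b of the NASH model were left out.

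**Figure D2:**
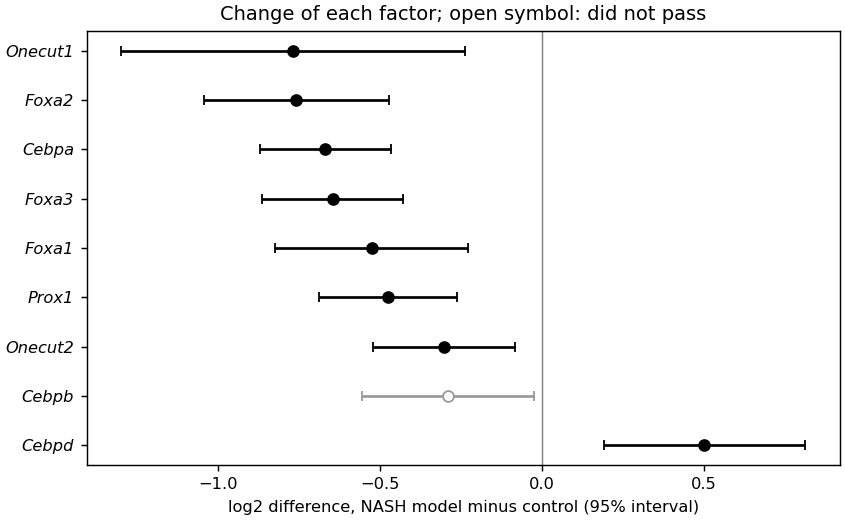
Log2 difference, NASH model minus control, for each factor, with its 95% interval from the limma fit (8 samples per group). Filled points passed an adjusted p of 0.05. Of the 9 points, 8 lie below 0, Cebpb (-0.29) is open, and Cebpd (0.50) lies above 0.

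Within each array, the difference between 2 genes of a family does not depend on any scaling by a constant, so it shows whether relatives changed unequally. It was tested for 7 pairs by two-sided exact permutation over the 16 samples, with adjustment over the 7 pairs. Cebpa minus Cebpd was 2.02 ± 0.15 in NASH model livers and 3.19 ± 0.43 in control livers (SD, n = 8 each). The highest NASH model sample (2.22) lay below the lowest control (2.77), and the change of -1.17 amounts to a 2.25-fold shift of the ratio away from Cebpa (exact permutation p = 0.00016, the smallest these 16 samples can give, adjusted p = 0.0011). Cebpb minus Cebpd was 0.17 ± 0.31 in NASH model livers and 0.97 ± 0.35 in control livers (SD, n = 8 each), a change of -0.79 (exact permutation p = 0.00031, adjusted p = 0.0011). Cebpa minus Cebpb changed by -0.38 and did not pass (exact permutation p = 0.026, adjusted p = 0.061), with adjusted p between 0.0051 (without NASH model 7) and 0.21 (without NASH model 1a and 1b) over the alternatives tried for the change of Cebpa minus change of Cebpb.

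No unequal change was detected within the other families. Foxa2 minus Foxa1 changed by -0.23 (exact permutation, adjusted p = 0.38), Foxa2 minus Foxa3 by -0.11 and Foxa1 minus Foxa3 by 0.12 (exact permutation, adjusted p = 0.54 for each). Onecut1 minus Onecut2 changed by -0.47 (exact permutation, adjusted p = 0.19). Pairs that miss the threshold are not shown to have changed equally.

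**Figure D3:**
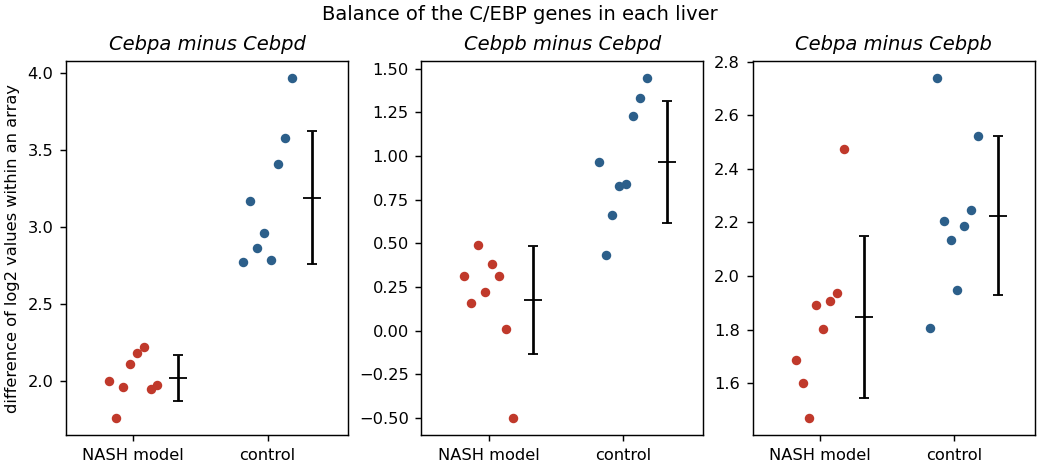
Difference of 2 C/EBP genes' log2 values within each array, for NASH model livers (left, red) and controls (right, blue), with mean ± SD (n = 8 each). Cebpa minus Cebpd separates the groups, with all NASH model samples at 2.22 or below and all controls at 2.77 or above, whereas Cebpa minus Cebpb overlaps.

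Onecut1 and Onecut2 both fell, with less certainty. Onecut1, which is known to act on the Foxa2 promoter and on glucose and bile acid genes, had a lowest, median and highest level of 6.32, 6.74 and 7.82 in NASH model livers, against 6.78, 7.73 and 8.71 in control livers. It varied most of the 9 factors within both groups (SD 0.50 in NASH model livers and 0.64 in control livers), and NASH model 5 (7.82) lay above the control median. Its difference of -0.77 ± 0.25 (SE) passed (adjusted p = 0.029), but did not without NASH model 2 and 7 (-0.63 ± 0.28 SE, adjusted p = 0.12), nor with eBayes trend and robust options (adjusted p = 0.059). It passed in 9 of the 16 fits that left out a single sample. Without control 9 the difference was -0.61 (adjusted p = 0.057).

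Onecut2, a relative of Onecut1 with which it acts in liver development, ran at 7.39, 7.63 and 7.86 (lowest, median and highest) in NASH model livers, against 7.59, 7.96 and 8.26 in control livers. The groups overlapped. The difference was -0.30 ± 0.10 (SE; adjusted p = 0.039), and it passed in 5 of the 16 fits that left out a single sample. It did not pass with NASH model 1a and 1b averaged (-0.29, adjusted p = 0.057), nor with arrays centred on spike-in controls (-0.23, adjusted p = 0.24).

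Prox1 had a lowest, median and highest level of 8.55, 8.81 and 8.95 in NASH model livers, against 9.02, 9.26 and 9.73 in control livers. The groups did not overlap, and control 9 was highest. Prox1 averaged 8.79 ± 0.12 in NASH model livers and 9.27 ± 0.24 in control livers (SD, n = 8 each), or 1.39-fold lower (difference -0.48 ± 0.10 SE, adjusted p = 0.0014). Prox1 also marks lymphatic endothelium. Of 7 lymphatic endothelial markers, 1 rose and 0 fell, with a median difference of 0.15, where 13.2% of all genes passed as higher and 13.4% as lower. Their summed level (log2 of the sum) ran between 8.09 and 8.70 in NASH model livers and between 7.89 and 8.25 in control livers. The one that rose was Lyve1 (0.61 ± 0.19 SE, adjusted p = 0.020), which sinusoidal endothelium also expresses, and it did not pass without NASH model 2 and 7. The part of these cells in the Prox1 result was not tested.

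Markers of several cell types moved with these changes, and their part in them was not tested. Beside the counts below, 13.4% of all genes passed as lower and 13.2% as higher. Of 18 measured hepatocyte markers that are not transcription factors, 7 fell and 0 rose, with a median difference of -0.13, and their mean ran between 11.13 and 11.23 in NASH model livers and between 11.27 and 11.39 in control livers. Of the 18, 14 had a mean level of 10 or more. The other 4, F7, Asgr1, Asgr2 and Itih1, fell by 0.47 on average. The count of 7 lower was 3 with spike-in centring, 3 with a replicate block and 1 with the clock score, and 2 markers were higher with cyclic loess, with trend and robust options or without the dimmest 40% of genes. Of 11 myeloid markers 10 rose and 0 fell, with a median difference of 2.003 and a summed level (log2) of 11.70 to 12.14 in NASH model livers against 8.58 to 9.68 in control livers. Of 8 stellate cell and myofibroblast markers 7 rose (median 1.68), and of 9 cholangiocyte markers 6 rose and 0 fell (median 1.24).

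The members were also set against the hepatocyte markers of the same array. Several of the 18 lay near the top of the array's range, such as Alb, Apoa1 and Apoa2 (NASH model means 12.64, 12.44 and 12.44). Little room is left there for a difference, so the mean difference of the list (-0.14) may be too small. Whether a member fell by more than the hepatocyte content of the samples was not tested. With every array centred on the mean of the 18 markers, 4 members were lower: Foxa2 (-0.62, adjusted p = 0.0011), Foxa3 (-0.51, adjusted p = 5.9e-04), Cebpa (-0.53, adjusted p = 2.0e-04) and Prox1 (-0.34, adjusted p = 0.026). With arrays centred on the 4 dimmer markers, a choice made after seeing the data, 0 members were lower and Cebpd was higher (0.97, adjusted p = 1.9e-05). In that scaling Cebpa differed by -0.20 (adjusted p = 0.11), Foxa2 by -0.29 (adjusted p = 0.059) and Prox1 by -0.0062 (adjusted p = 0.97), while the median of all genes moved to 0.43. The rise of Cebpd passed under all 6 scalings tried (adjusted p between 1.9e-05 and 0.025).

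Circadian clock genes differed between the groups too, with 5 of 16 higher and 5 lower, beside 13.2% higher and 13.4% lower over all genes. The labels give no hour of collection. A clock score per sample (the first within-group component of these genes, oriented so that Dbp is positive) ran between 1.05 and 2.38 in NASH model livers and between -3.61 and 2.55 in control livers. Only control 5 reached the NASH model range, and control 4 came next at 0.60, below every NASH model sample. Score and group thus largely coincided, and a fit with both cannot cleanly tell them apart. Control 5 had the highest score and was the lowest control for 4 members, namely Foxa2, Cebpa, Onecut1 and Prox1. Control 9 had the lowest score and was the highest control for 5, namely those 4 and Onecut2. With the score as a covariate, Foxa2 (-0.69, adjusted p = 0.029), Foxa3 (-0.73, adjusted p = 0.00335) and Cebpa (-0.60, adjusted p = 0.0080) passed as lower. Prox1 (-0.25, adjusted p = 0.27), Foxa1 (-0.22, adjusted p = 0.53), Onecut1 (-0.51, adjusted p = 0.44), Onecut2 (-0.18, adjusted p = 0.52) and Cebpd (0.17, adjusted p = 0.65) did not pass in that fit, in which standard errors were wider (0.20 against 0.15 for Cebpd).

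**Figure D4:**
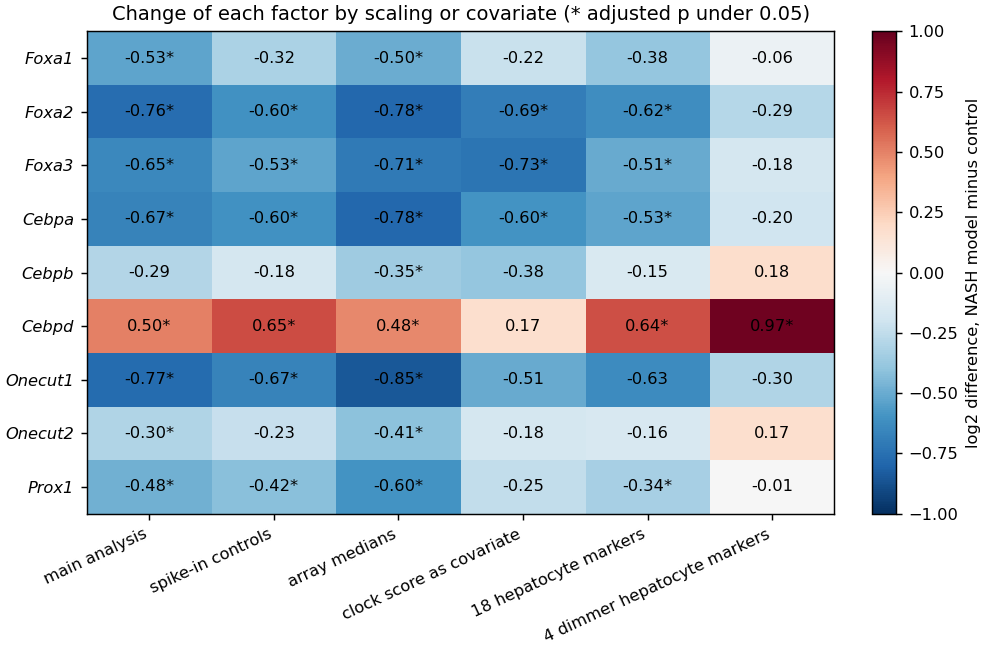
Log2 difference, NASH model minus control, of each factor (rows) in the main analysis and under 5 alternative scalings or covariates (columns), with colour giving the same number and an asterisk marking an adjusted p under 0.05. Foxa2, Foxa3 and Cebpa keep their asterisk in all columns but the last, which is centred on the 4 dimmer hepatocyte markers, and Cebpd loses it only with the clock score.

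Other transcription factors of hepatocytes were mostly lower as well. Of 18 measured (20 were listed), 11 fell and 0 rose, with a median of -0.37. Beside this, 19.1% of all genes with a mean level above the floor passed as lower and 18.5% as higher. Whether the count differs from these shares was not tested. Tbx3, a T-box factor of pericentral hepatocytes, fell by 1.73 ± 0.26 (SE). Nr0b2, the small heterodimer partner induced by bile acids, fell by 1.37 ± 0.16 and Mlxipl, the carbohydrate-responsive activator of fat synthesis, by 1.32 ± 0.14. Hnf4a, the nuclear receptor at the centre of the hepatocyte network, fell by 0.66 ± 0.10 (adjusted p = 5.4e-05). The remaining 7 did not pass. With arrays centred on the 18 hepatocyte markers 7 of the 18 were lower, and with the 4 dimmer markers 3 were lower and 5 higher.

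Genes whose proteins pair with or act against C/EBP proteins were higher where they passed. Of 8 measured, 3 rose and 0 fell, with a median of 0.10. Among all genes with a mean level above the floor, 18.5% passed as higher and 19.1% as lower. Whether the partner counts differ from these shares was not tested. Atf3, a stress-induced leucine zipper factor, rose by 2.55 ± 0.32 (SE), with levels of 6.10 to 6.83 in NASH model livers against 3.01 to 5.96 in control livers. Ddit3, which encodes the C/EBP partner CHOP that blocks binding to usual C/EBP sites, rose by 0.72 ± 0.18 (adjusted p = 0.0052), and Atf4 rose by 0.32 ± 0.11 (adjusted p = 0.029). The other 5 did not pass. With a replicate block or with the clock score, 1 of the 8 was higher.

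Genes known to depend on these factors did not share one direction. Among all genes with a mean level above the floor, 19.1% passed as lower and 18.5% as higher. Whether the counts below differ from these shares was not tested. Of 11 measured genes with described FOXA control, 3 fell and 1 rose (median 0.05). Lower were G6pc, the last enzyme of glucose release (-1.39 ± 0.25 SE), and Mttp, which loads lipid onto lipoproteins (-0.81 ± 0.08). So was the apolipoprotein gene Apom (-0.53 ± 0.12), and the rise was that of the carnitine palmitoyltransferase gene Cpt1a (0.45 ± 0.09). With the clock score as a covariate 0 of the 11 were higher, and Cpt1a just missed the threshold (adjusted p = 0.055 for the change of Cpt1a). With arrays centred on the 18 hepatocyte markers 2 were higher. The classic targets Ttr (0.06 ± 0.07), Alb (0.02 ± 0.07) and Pck1 (0.16 ± 0.08) did not pass. Alb and Ttr had means above 12, near the top of the array's range, where quantile normalization leaves little room for a difference. The Alb median was 12.63 in both groups. Alb did not pass in the values as deposited (0.15, adjusted p = 0.12) and was higher with cyclic loess (0.19, adjusted p = 0.042). Of 11 genes with described C/EBP-alpha control, 3 fell and 1 rose (median 0.02). Besides G6pc, the clotting factor gene F9 (-0.54 ± 0.11) and the urea cycle gene Otc (-0.50 ± 0.10) fell, and glycogen synthase Gys2 rose by 0.79 ± 0.15. With the clock score 0 of the 11 were higher (adjusted p = 0.17 for the change of Gys2), and with arrays centred on the 18 hepatocyte markers 4 were. For the hepcidin gene Hamp the difference of 0.33 ± 0.17 missed the threshold (adjusted p = 0.16). Of 7 genes with described ONECUT1 or PROX1 control, 4 fell and 0 rose (median -0.66), and these were G6pc, Mttp, Hnf4a and Foxa2 itself. Each is counted elsewhere too: Foxa2 is a member, Hnf4a is among the other transcription factors, and G6pc and Mttp are FOXA-linked. This list therefore adds no separate fall. Cyp7a1, the rate-limiting enzyme of bile acid synthesis, had a difference of 0.50 ± 0.42 that missed the threshold (adjusted p = 0.43).

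Of 10 acute-phase genes with described C/EBP-beta and C/EBP-delta control, 1 fell (Crp, -0.79 ± 0.14 SE, adjusted p = 2.1e-04) and 0 rose, with a median of -0.064. These genes varied widely among the controls. Saa2 ran at 6.34, 7.40 and 7.87 (lowest, median and highest) in NASH model livers, against 5.30, 10.27 and 11.69 in control livers. Controls 10, 5 and 6 were lowest (5.30, 5.76 and 7.59), and the other 5 lay above all NASH model samples. The Saa2 difference of -1.92 ± 0.80 did not pass (adjusted p = 0.087), nor did that of Saa1 (-1.64 ± 0.61, adjusted p = 0.054). Lcn2, an iron-binding acute-phase protein gene named after its values were seen, had the largest difference of the 10, which was upward and did not pass either (2.02 ± 0.78, adjusted p = 0.063). It ran between 11.10 and 11.65 in NASH model livers and between 5.54 and 11.95 in control livers, with controls 10, 5 and 6 lowest again. The count for these genes depended on single controls: 4 were lower without control 5 or without control 10, and 3 were higher without control 4. With arrays centred on the 18 hepatocyte markers, 3 were higher. In the 3 controls with low Saa2, Cebpd stood at 5.98, 6.13 and 5.80, inside the range of the other controls.

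**Figure D5:**
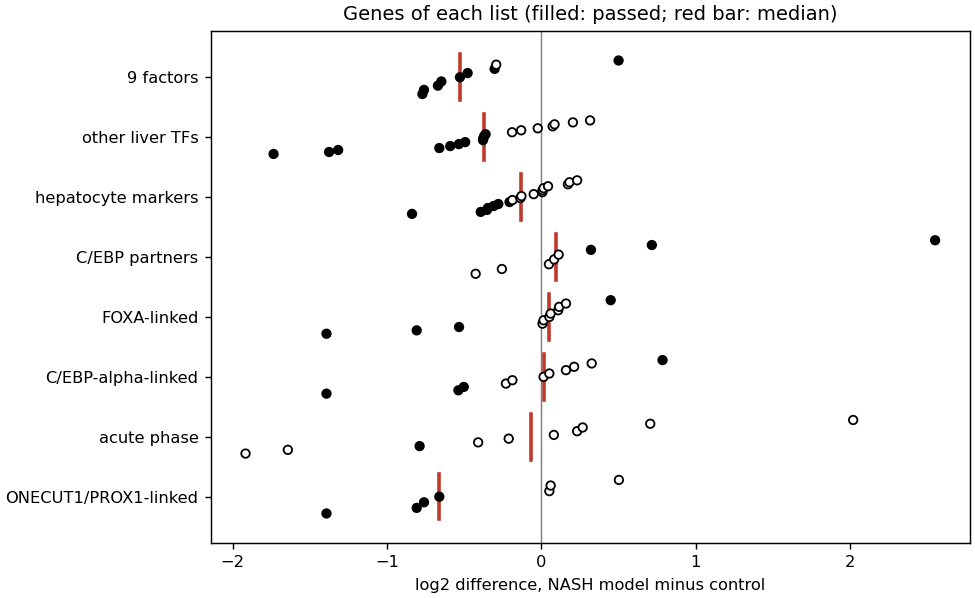
Log2 difference, NASH model minus control, of every measured gene in 8 lists (each point a gene, filled where it passed, red bar the list's median). The 9 factors and the other liver transcription factors lie mostly below 0 (medians -0.53 and -0.37), while the FOXA-linked and C/EBP-alpha-linked genes have medians of 0.05 and 0.02.

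No correlation between members within a group passed after adjustment, in groups of 8 samples. Pearson's r was above 0 for 27 of 36 pairs in NASH model livers and for 19 of 36 in controls, and that difference was not tested. Of 72 correlations (36 pairs in each group of 8), 6 had an exact permutation p under 0.05 for Pearson's r, 1 among NASH model livers and 5 among controls, and 0 passed after adjustment over the 72 (lowest adjusted p = 0.20 for Pearson's r and 0.37 for Spearman's rho). The lowest unadjusted p was that of Cebpa with Cebpd in NASH model livers (r = 0.81, exact permutation p = 0.0039, adjusted p = 0.20; rho = 0.79, exact permutation p = 0.028, adjusted p = 0.37), at r = 0.47 without the 2 samples farthest from the median of Cebpa. Among controls, Cebpd ran against Prox1 (r = -0.83, exact permutation p = 0.0079, adjusted p = 0.20; rho = -0.76, exact permutation p = 0.037, adjusted p = 0.37), at r = -0.83 without the 2 samples farthest from the median of Cebpd. Also among controls, Foxa2 went with Onecut2 (r = 0.85, exact permutation p = 0.0084, adjusted p = 0.20; rho = 0.81, exact permutation p = 0.022, adjusted p = 0.37) and with Onecut1 (r = 0.80, exact permutation p = 0.017, adjusted p = 0.31; rho = 0.74, exact permutation p = 0.046, adjusted p = 0.37), at r = 0.61 and 0.32 without the 2 samples farthest from the median of Foxa2.

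With group means removed, the genes whose levels over the 16 samples were most like a member's were, by Pearson's r and as a description only, Cldn3 (0.85) and Ndufa2 (0.84) for Cebpa, Zfp653 (0.88) and Arv1 (0.85) for Foxa2, Dock8 (0.89) and Tubb4b (0.84) for Foxa1, and Id2 (0.88) and Rbpms (0.88) for Prox1. For Cebpd they were Mtfr1l (0.84) and Fam20c (0.83), for Cebpb Ttc39b (0.84) and Nmu (0.81), for Onecut2 Ilkap (0.89) and Ajuba (0.82), for Onecut1 Cemip (0.85) and AU040320 (0.81), and for Foxa3 Klk1b24 and Unc79 (0.79 each). Klk1b24, Unc79, Nmu and Cemip had mean levels below the background floor.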

How the data were processed

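RNA was extracted with TRIzol, per the labels' protocols. The deposited values are log2 expression per probe set for 29129 probe sets, and the sources used here do not give the authors' steps in making them. The platform annotation gave 1 symbol for 19572 probe sets, several for 0 and none for 9557. Column medians differed by 0.14, so quantile normalization was applied, which moved no value by more than 0.16. Each gene was represented by its brightest probe set.

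Groups were compared with limma 3.58.1 in R 4.3.3 (lmFit and eBayes, group as the only term, two-sided) over 19505 genes. Exact permutation tests enumerated all 12870 assignments of group labels. Both steps were tested on simulated data. The members and the gene lists were chosen with earlier results of these data known. Genes named beside the members are the called list genes with the largest differences, fixed target genes, and the 2 genes most like each member. NASH model 1a and 1b differed as much as other pairs did (SD of differences 0.387, against 0.340 to 0.466 in 27 pairs) and were kept apart. This spread cannot show whether they are separate animals. With 1a and 1b averaged, Onecut2 missed the threshold and the other members kept their calls. The number of arrays limits the precision. Listed genes with no named probe set are not analysed here. Alternatives were other scalings, filters and fits, samples left out, a replicate block and a clock covariate.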

Additional observations from a re-analysis of the deposited data

Results flagged for a closer look

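The 9 factors and the genes that the naming rule picked from the lists were examined in each group for a sample whose gap to the nearest other exceeded Dixon's 95% critical value of 0.526 for 8 samples, and 8 of the 104 combinations had one, where chance gives about 1 in 20. None of the 9 factors was among them. In NASH model livers, Cyp7a1 was 6.40 in sample 2 against 8.30 to 9.52 in the others, and F9 was 7.25 in sample 7 against 7.65 to 7.99. Among controls, sample 4 was lowest for G6pc (10.27, against 11.12 to 11.66) and for Alb (12.51, against 12.63 to 12.67), and highest for Itgam (5.73, against 2.67 to 4.09). The Alb values lie near the top of the array's range, where quantile normalization sets the steps between them. Control 5 was highest for Gys2 (8.24, against 7.26 to 7.66) and Asgr2 (9.16, against 8.74 to 8.86). Control 9 was highest for Atf3 (5.96, against 3.01 to 4.38).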

How the results depend on the processing

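Of the 9 factors, 7 were lower in the main analysis, 4 with arrays centred on the 18 hepatocyte markers, 3 with the clock score as a covariate and 0 with arrays centred on the 4 dimmer hepatocyte markers, where the signs of Onecut2 (0.17), Asgr2 (0.13) and Fgb (0.12) and of the change of Itih1 (0.079) turned. That centring adds 0.47 to every gene, so all genes between -0.47 and 0 turned with them, Cebpb (0.18) included. The 1 factor that was higher, Cebpd, became 0 without NASH model 1a and 1b, with the clock score and with a replicate block. The sign of the clock gene Ciart also turned with the clock score (-0.40). The numbers in the labels did not pair the samples (correlations of same-numbered deviations between -0.024 and 0.059), and in the replicate block fit Cebpa was at -0.57 (adjusted p = 0.0030), Cebpd at 0.43 (0.073), Onecut1 at -0.61 (0.15), Onecut2 at -0.21 (0.28) and Cebpb at -0.43 (0.017). Over all genes, 2577 were higher and 2619 lower in the main analysis, against 3307 and 1179 with spike-in centring, 2355 and 3646 with median centring, 3973 and 1375 with hepatocyte marker centring, 12224 and 407 with the 4 dimmer markers, and 1525 and 1255 with the clock score. The median of all genes was -0.04 in the main analysis, -0.12 with median centring, 0.056 with spike-in centring, 0.097 with the 18 markers and 0.43 with the 4. The cause of these shifts was not tested. Foxa1 (-0.32, adjusted p = 0.16) and Onecut2 (-0.23, adjusted p = 0.24) did not pass with spike-in centring. Foxa2, Foxa3, Cebpa, Foxa1, Prox1 and Cebpd passed in all 16 fits that left out a single sample. The family pair tests were rerun only on deposited values, with cyclic loess and with samples left out. The clock score and the replicate block were not tried for them. In the reruns the count of unequal pairs stayed within 1.5 times its main value of 2. Cebpa minus Cebpb passed in some of them, as without NASH model 7 (exact permutation, adjusted p = 0.0051).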

Other observations

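Controls 5 and 9, at opposite ends of the clock score, were also the extreme controls for several factors, which was noticed in these data. The relation of each factor to the clock score was then computed within each group of 8, and 0 of the 18 correlations passed after adjustment. Among controls, Prox1 gave r = -0.68 (exact permutation p = 0.067, adjusted p = 0.36; rho = -0.64, exact permutation p = 0.096, adjusted p = 0.58) and Cebpd r = 0.65 (exact permutation p = 0.069, adjusted p = 0.36; rho = 0.64, exact permutation p = 0.096, adjusted p = 0.58). Without the 2 samples farthest from the median score, r was -0.49 for Prox1 and 0.83 for Cebpd. Among NASH model livers, Foxa2 gave r = 0.73 (exact permutation p = 0.043, adjusted p = 0.36; rho = 0.88, exact permutation p = 0.0072, adjusted p = 0.13), and 0.75 without the 2 farthest samples, while among controls its r was -0.38.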
